A study of Homo sapiens with 6 samples.

Results

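The genes described here are 8 transcription factor genes of the primitive streak and the early endoderm, namely TBXT (also named T), MIXL1, EOMES, GSC, SOX17, FOXA2, GATA6 and GATA4, and the ZIC2-bound regions around them in human embryonic stem cells. Every region whose nearest edge lay within 100 kb of one of the 8 gene starts was taken, whatever its width or genotype. This gave 14 different regions out of 16077, with 9 in the list of ZNF263-knockout cells (7231 regions) and 9 in the list of wild-type cells (12966 regions). The starts were known to the nearest kb on hg19, so each distance is good to 0.5 kb.

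ZIC2 binding was profiled by CUT&Tag, a method in which an antibody guides a transposase to a chromatin protein and adapters are inserted into the DNA beside it. The groups were H1 (WA01) human embryonic stem cells with a homogeneous ZNF263 knockout made with Cas9 (KO, 2 anti-ZIC2 libraries) and unedited H1 cells (WT, 2 anti-ZIC2 libraries), with 1 IgG library of each genotype. The labels do not say whether the KO cells were 1 clone or whether the 2 libraries of a genotype came from separate cultures. Only 1 list of region positions per genotype was deposited, without heights, scores or read counts. The values below therefore have no replicate error, the depth behind them is unknown, and no test between genotypes was possible. Absence from a list means only that the list holds no region there, and signal below the threshold of calling is not shown by these lists. Below, called in a genotype means held in its list. All 4120 overlapping pairs of the lists had identical edges, and how regions were assigned to each list is not given. No IgG background could be set beside the regions, and an effect of genotype and a difference between libraries cannot be told apart.

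ZIC2 is a zinc-finger transcription factor present in pluripotent stem cells and in the early nervous system, and ZNF263 belongs to the DNA-binding zinc-finger proteins. The primitive streak is the structure through which epiblast cells leave the pluripotent state to form mesoderm and endoderm. Pluripotent stem cells hold the genes of this step at low levels, and NODAL and WNT signals switch them on at the onset of differentiation. Expression of the 8 genes was not measured in these samples, so the name of the group rests on known roles and could not be checked against these data.

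Of the 14 ZIC2 regions near these genes, 11 lay at FOXA2, EOMES and TBXT. FOXA2 had 6 regions, EOMES 3, TBXT 2, and MIXL1, SOX17 and GATA4 had 1 each. GSC and GATA6 had none within 100 kb in either genotype. By class, 4 regions were called in both genotypes (shared), 5 in KO alone (KO-only) and 5 in WT alone (WT-only). The shared regions lay at FOXA2 (3) and EOMES (1). Of all 16077 different regions, 25.6% were shared, 19.4% KO-only and 55.0% WT-only, so equal KO-only and WT-only counts are not a neutral base.

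**Figure D1:**
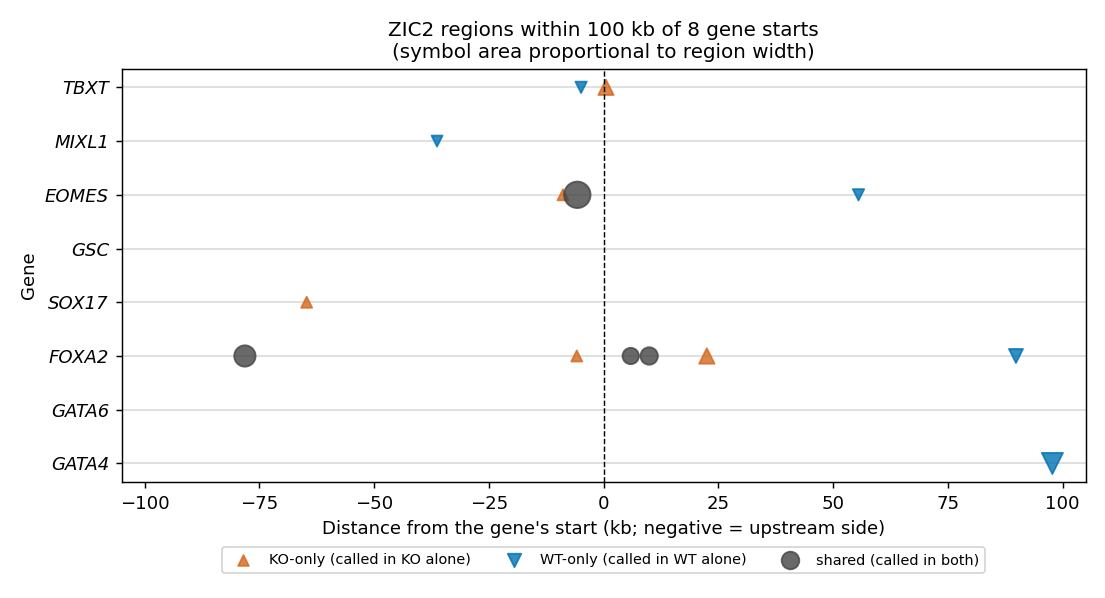
Distance of each ZIC2 region from the start of its gene in kb (x axis, negative on the upstream side) for the 8 genes (rows), with symbol area proportional to region width. Upward triangles are regions called in KO alone, downward triangles regions called in WT alone, and circles regions called in both. The shared regions lie at EOMES and FOXA2, and the rows of GSC and GATA6 are empty.

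TBXT encodes brachyury, the T-box factor of the primitive streak and its mesoderm, and its start lies at 166.582 Mb on chromosome 6. With the start as given, it was the one gene of the 8 with a region within 1 kb. That region, chr6:166581183-166581470 (288 bp), was called in KO and not in WT, and lay 0.53 kb from the start on the transcribed side. With the start moved by 500 bp to either side, within its precision, the distance was 0.03 kb or 1.03 kb, so that the region would fall just outside 1 kb in one case. A second region, chr6:166586891-166587050 (160 bp), was called in WT and not in KO, and lay 4.89 kb away on the upstream side. The 2 regions were separated by 5.42 kb, and TBXT thus had 1 region in each list but no shared one. The nearest shared region was 162 kb away (309 bp wide).

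The promoter of TBXT is shown because a region lay next to it. The RefSeq table used (GRCh38.p14) lists 2 starts for TBXT, 804 bp apart. The 250 bases before the more upstream start are chr6:166168656-166168905 on the minus strand of GRCh38.p14, and capitals mark CAGCAG, a shortened form of the ZIC-family core CAGCAGG.
TBXT promoter: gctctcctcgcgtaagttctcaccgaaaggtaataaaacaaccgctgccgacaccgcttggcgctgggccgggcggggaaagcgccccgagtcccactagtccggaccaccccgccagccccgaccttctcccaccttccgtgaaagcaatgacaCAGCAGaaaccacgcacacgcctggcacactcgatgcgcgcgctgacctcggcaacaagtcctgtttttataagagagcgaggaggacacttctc
The stretch is 60.8% G and C and holds 23 CG dinucleotides. The match begins 95 bases before that start. The region called in KO and the sequence are given on different builds and were not laid over each other, so whether the region reaches either RefSeq start is not given here. The full core CAGCAGG, searched on both strands in windows from 250 bases before to 50 after each start, was in 0 of the 2 TBXT promoters, and in 10.5% of all 35116 promoters in the table. The shorter CAGCAG, which also counts each match of the full core, was in 1 of the 2 TBXT promoters and in 31.3% of all. MIXL1, EOMES and GSC, with 1 promoter each in the table, held neither form, and the GATA6 promoter held CAGCAG and not CAGCAGG. FOXA2, SOX17 and GATA4 were not in the table of promoters and were not searched.

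EOMES encodes a T-box factor needed for the formation of endoderm and mesoderm, and starts at 27.764 Mb on chromosome 3. Its nearest region, chr3:27769714-27770574, was shared and lay 5.71 kb from the start on the upstream side. At 861 bp it was the widest of the 14 regions, and 9.30% of all 4120 shared regions were at least as wide. A KO-only region of 150 bp, chr3:27772835-27772984, followed 2.26 kb further out, at 8.84 kb from the start. A WT-only region of 160 bp, chr3:27708294-27708453, lay 55.5 kb away on the transcribed side. EOMES thus had 2 regions in the KO list and 2 in the WT list, and these covered 1011 bp in KO and 1021 bp in WT. The 1 wide region near the gene was in both lists, and the regions found in 1 list were narrow. Over the whole lists, too, shared regions were wider (median 460 bp, against 167 bp for KO-only and 181 bp for WT-only regions).

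MIXL1 encodes a homeobox factor of the streak, and starts at 226.411 Mb on chromosome 1. It had 0 KO regions and 1 WT region within 100 kb. The WT-only region, chr1:226374579-226374728, had the narrowest width in the lists (150 bp) and lay 36.3 kb away on the upstream side. ACBD3 is the next protein-coding gene on that side in the RefSeq table. Whether the region lies nearer to ACBD3 than to MIXL1 was not determined. The nearest KO region was 111 kb away and was shared (296 bp). A WT-only region of 555 bp lay just outside the limit, at 101 kb.

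GSC encodes goosecoid, a homeobox factor of the organizer and anterior streak, and starts at 95.236 Mb on chromosome 14. No region of either list lay within 100 kb. The nearest KO region was 318 kb away, a shared region of 505 bp, and the nearest WT region was 185 kb away, a WT-only region of 150 bp. Within 500 kb of the start were 1 shared, 0 KO-only and 5 WT-only regions. Of all different regions in the lists, 25.6% were shared, 19.4% KO-only and 55.0% WT-only, and the regions near GSC are too few to set a share against these.

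FOXA2 encodes a forkhead factor that opens chromatin in endoderm and is also active in notochord and floor plate, and starts at 22.566 Mb on chromosome 20. Its window held 5 KO regions, covering 1705 bp, and 4 WT regions, covering 1507 bp. Of the 6 different regions, 3 were shared, 2 KO-only and 1 WT-only. The shares over the whole lists were 25.6%, 19.4% and 55.0%, and 6 regions are too few to set a share against these. FOXA2 was the one gene of the 8 with more than 1 shared region.

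Around the FOXA2 start, 4 of these regions lay between chr20:22543205 and chr20:22571979. The shared regions chr20:22559747-22560076 (330 bp) and chr20:22555686-22556060 (375 bp) lay 5.92 kb and 9.94 kb away on the transcribed side, 3.69 kb apart. The KO-only region chr20:22543205-22543495 (291 bp) lay 22.5 kb away on the same side, and the KO-only region chr20:22571830-22571979 (150 bp) lay 5.83 kb away on the upstream side. Each of these shared regions had 3 other regions of the joint lists within 25 kb, a number reached or passed by 8.43% of all 16077 regions. All 4 regions within 50 kb of the start were in the KO list, and 2 of them were in the WT list. Over the whole KO list, 43.0% of regions were not called in WT, and 4 regions are too few to set a share against this.

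The remaining FOXA2 regions lay far out. The shared region chr20:22644136-22644694 (559 bp) was 78.1 kb away on the upstream side, and the WT-only region chr20:22475908-22476150 (243 bp) was 89.9 kb away on the transcribed side. Neither had another region of the lists within 25 kb. All 3 shared regions were wider than each of the 3 FOXA2 regions found in 1 list, and shared regions also had the larger median width over the whole lists.

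SOX17 encodes an HMG-box factor of definitive endoderm, and starts at 55.370 Mb on chromosome 8. It had 1 KO region and 0 WT regions within 100 kb. The KO-only region, chr8:55305175-55305324, was 150 bp wide and lay 64.7 kb away on the upstream side. The nearest WT region was 662 kb away, the largest such distance among the 8 genes, and was also 150 bp wide.

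GATA4 and GATA6 encode zinc-finger factors of primitive and definitive endoderm. GATA4 starts at 11.562 Mb on chromosome 8 and had 0 KO regions and 1 WT region. The WT-only region, chr8:11659786-11660335, was 550 bp wide, and 6.79% of all 8846 WT-only regions were at least as wide. It lay 97.8 kb away on the transcribed side and was the member closest to the limit. NEIL2 is the next protein-coding gene after GATA4 on that side in the RefSeq table, but the gene nearest the region was not determined. A KO-only region of 150 bp lay on the same side just outside the limit, at 104 kb. GATA6 starts at 19.749 Mb on chromosome 18 and had none within 100 kb. The nearest KO region was a KO-only one of 151 bp at 188 kb, and the nearest WT region was a WT-only one of 150 bp at 155 kb.

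Set beside the whole lists, the shares near the 8 genes had intervals that include the shares of the whole lists. Of the 9 KO regions, 5 were not called in WT (55.6%, exact Clopper-Pearson 95% interval 21.2 to 86.3), against 43.0% of the whole KO list. Of the 9 WT regions, 4 were in the KO list as well (44.4%, 13.7 to 78.8), against 31.8% of the whole WT list. Among the 10 regions found in 1 list, 5 were KO-only (50.0%, 18.7 to 81.3), against 26.0% over the whole lists. Of the 14 different regions 4 were shared, against 25.6% over the whole lists. Each interval reflects counting error alone and assumes independent regions, whereas 6 of the 14 share the FOXA2 window. FOXA2 alone supplied 3 of the 4 shared regions. Without it, 3 of 4 KO regions were not called in WT, and 1 of 5 WT regions was also called in KO.

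**Figure D2:**
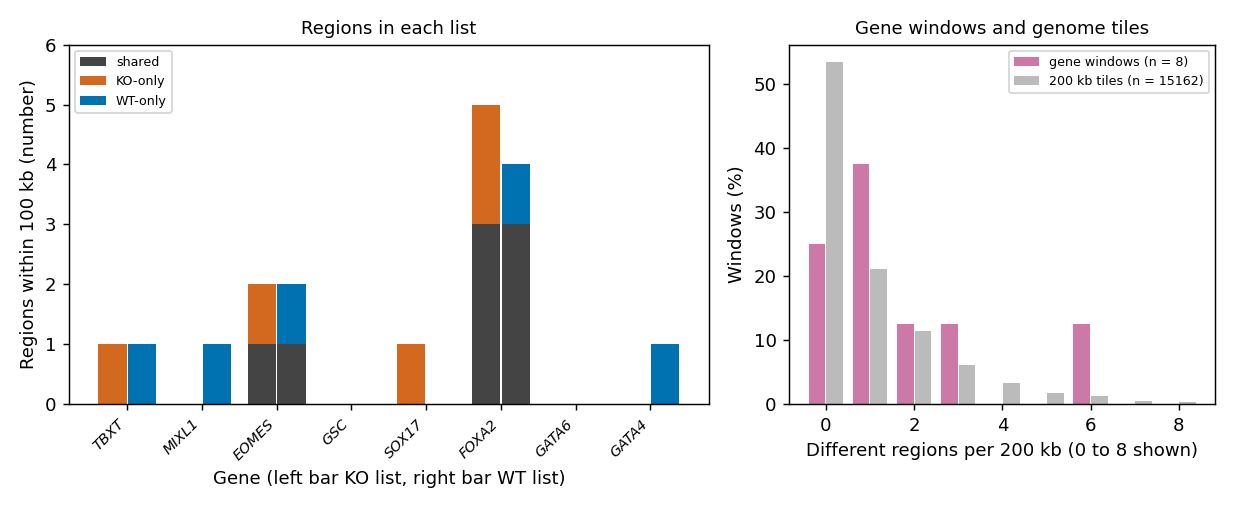
Left, number of ZIC2 regions within 100 kb of each gene start in the KO list (left bar) and the WT list (right bar), split into shared regions and regions of that list alone. Right, percent of the 8 gene windows and of 15162 genome tiles of 200 kb that hold 0 to 8 different regions. FOXA2 has 5 KO and 4 WT regions, and its window of 6 different regions lies in the upper tail of the tiles.

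A gene window spans 200 kb, and tiles of that length over the autosomes and chromosome X give the usual number of regions. At least 1 region was found in 6 of the 8 gene windows, against 46.6% of tiles. The gene windows held 1.75 different regions on average (median 1), and the tiles 1.06 (median 0). At least 3 regions were found in the windows of FOXA2 and EOMES, against 14.1% of tiles, and the 6 regions of FOXA2 were reached or passed by 2.81% of tiles. A gene window is centred on a gene start and a tile is not, and many tiles hold no gene, so this sets a scale and tests nothing.

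Width was the one quantity the lists give per region. Shared regions near the 8 genes were 330 to 861 bp wide (median 467 bp), against a median of 460 bp for all shared regions. The 5 KO-only regions were 150 to 291 bp wide (median 150 bp, against 167 bp for all KO-only regions), and 3 of them had the narrowest width in the lists, 150 bp, as did 43.8% of all KO-only regions. The 5 WT-only regions were 150 to 550 bp wide (median 160 bp, against 181 bp for all WT-only regions), and 1 of them was 150 bp wide, as were 39.6% of all WT-only regions. Every shared region here was wider than every KO-only region, and the GATA4 region was the one WT-only region that was wider than a shared region, exceeding 2 of the 4. All 4120 overlapping pairs of the lists had identical edges, so a shared width is 1 value for both genotypes and not a measurement of each.

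**Figure D3:**
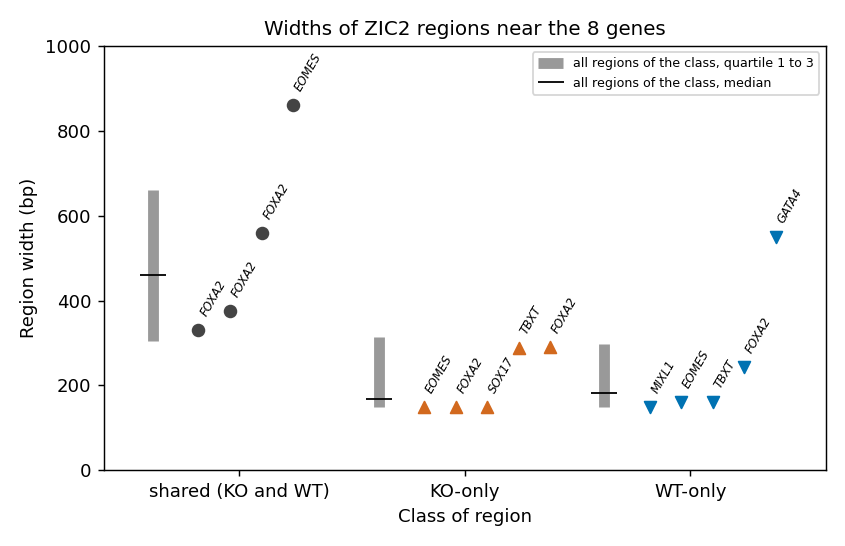
Width in bp of each of the 14 ZIC2 regions near the 8 genes (y axis), by class (x axis) and labelled with the gene. Grey bars run from the first to the third quartile of all regions of the class and the black tick is their median. The shared EOMES region (861 bp) and the WT-only GATA4 region (550 bp) lie above the grey bar of their class.

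By role, the 4 primitive streak genes (TBXT, MIXL1, EOMES and GSC) had 1 shared, 2 KO-only and 3 WT-only regions. The 4 endoderm genes (SOX17, FOXA2, GATA6 and GATA4) had 3 shared, 3 KO-only and 2 WT-only regions, of which FOXA2 held 6. Counting each list alone, TBXT and EOMES had as many KO as WT regions, FOXA2 and SOX17 had 1 more in KO, and MIXL1 and GATA4 had 1 more in WT. No direction was common to either set of genes. The whole KO list holds 7231 regions and the WT list 12966, so equal counts are not a neutral base. Of all different regions, 25.6% were shared, 19.4% KO-only and 55.0% WT-only.

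Within 20 kb of a start, 7 regions remained, at TBXT (2), EOMES (2) and FOXA2 (3). These were 3 shared, 3 KO-only and 1 WT-only regions, so 6 were in the KO list and 4 in the WT list. Over the whole lists, 25.6% of the different regions were shared, 19.4% KO-only and 55.0% WT-only, and 7 regions are too few to set a share against these. The other 5 genes had no region of either list within 20 kb. The 1 WT-only region within 20 kb was the 160 bp region upstream of TBXT.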

How the data were processed

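The deposited files are 2 lists of ZIC2 regions, 1 per genotype, with 3 columns (chromosome, start and end) and no header, and the columns hold positions only. Named tools and build are Bowtie2, Picard and hg19 per the submitters' processing notes. Not given in the sources used here are the peak caller and its threshold, how IgG was used and whether replicates were pooled. Starts of genes were those of the stated choice of members, to the nearest kb. The members and lists were chosen with earlier results of these data known. Regions overlapping by at least 1 bp were called shared. Distance was taken from the nearest edge, and coordinates are hg19, counted from 1. Named were all 8 genes with every region within 100 kb, and the nearest region elsewhere. A promoter was shown for a gene with a region within 1 kb. Motifs were searched in RefSeq promoters of GRCh38.p14, matched by symbol for 5 of the genes, without FOXA2, SOX17 and GATA4. Which side is upstream follows the genes' known strands. Other genes of these pathways were not analysed here. Regions were assigned by distance to the 8 starts alone, so a region may lie nearer to another gene. No test was run, since each genotype has 1 list. Python 3.11.15, pandas 2.3.3, numpy 2.4.6, scipy 1.17.1 and matplotlib 3.10.9 were used, and the routines were tested on simulated data. The IgG libraries were not analysed here.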

Additional observations from a re-analysis of the deposited data

How the results depend on the processing

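The counts changed with the distance limit, with a minimum width and without FOXA2. There were 9 different regions within 50 kb (2 WT-only), 7 within 20 kb (3 KO-only and 1 WT-only) and 26 within 200 kb (7 shared and 12 WT-only). Among regions wider than 150 bp, 2 were KO-only, with a median width of 289.5 bp. With a minimum width of 276 bp, the median of both lists together, 7 were left, with 4 shared, 2 KO-only (median 289.5 bp) and 1 WT-only (550 bp). At this cut 80.0% of WT regions were in the KO list as well, a share that rests on the 4 shared and 1 WT-only regions. Shared regions were wider over the whole lists too (median 460 bp, against 181 bp for WT-only), and the whole-list share at this cut is not given here. Without FOXA2, 8 regions were left, with 1 shared (861 bp) and 3 KO-only. The mean width of WT-only regions was 252.6 bp, against a median of 160 bp. Measuring from midpoints left every count within 1.5 times its value, as did leaving out each gene other than FOXA2 in turn, a choice made after seeing the data. Reciprocal overlap of 50% tests nothing, since overlapping pairs have identical edges. Counting edges within 1 kb as shared and joining regions within 1 kb test nothing near these genes either, since the smallest gap between neighbouring regions of a gene was 2.26 kb. Moving a start by 500 bp changed each nearest distance by no more than 0.5 kb. The count of other regions within 25 kb was also added after seeing the data. No paired analysis was possible because the files hold 1 list per genotype and nothing per library, so replicates could not be left out either. Tiles moved by 100 kb held 1.06 regions on average, as before, and tiles with at least 1 region held 2.27. Depth is unknown, so the lists do not separate a faint region from an absent one.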

Other observations

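Between 100 and 200 kb from the 8 starts lay 12 further regions, 3 shared, 2 KO-only and 7 WT-only. MIXL1 had 6 of them, 2 shared and 4 WT-only, and 5 of these 6 lay on the side of ACBD3. With its region at 36.3 kb, MIXL1 thus had 2 KO regions and 7 WT regions within 200 kb. Over the whole lists, 25.6% of different regions were shared, 19.4% KO-only and 55.0% WT-only, and 31.8% of WT regions were also called in KO. The shared MIXL1 regions were 296 bp and 423 bp wide, at 111 kb and 161 kb. The widest WT-only one was 555 bp wide, at 101 kb.

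Within 500 kb, the 8 genes ranged from 2 different regions at SOX17, both KO-only, to 17 at MIXL1. The 17 were 5 shared, 1 KO-only and 11 WT-only, against 25.6% shared, 19.4% KO-only and 55.0% WT-only over the whole lists. The 2 regions at SOX17 are too few to set a share against these. EOMES and FOXA2 had 8 each. SOX17 was the one gene of the 8 with no WT region within 500 kb, and its nearest shared region lay 690 kb away.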
